A study of Mus musculus with 11 samples.

Results

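Wild-type mouse spinal cord was compared with wild-type cultured mouse fetal fibroblasts (MEF), a tissue of many cell types against a culture of dividing connective-tissue cells. The members were chosen by genotype and source: the 3 wild-type spinal cord libraries and the 3 wild-type MEF libraries, 6 of the 11 libraries in the series, and the 15962 of 55487 listed genes whose mean FPKM over those 6 libraries was at least 0.5. FPKM is a gene's read count per kilobase of its exons, scaled to the reads of the library, so levels of different genes can be set side by side. All 6 libraries came from the C57BL/6 strain, and neither group carried the p.S87L change in Morc2a that the other 5 libraries carried (3 of spinal cord, 2 of MEF). The sources used here give neither animal age nor culture passage, and nothing in the labels tells whether a group's libraries are separate animals or cultures. The p-values below therefore measure the spread between these samples, which may be technical. Tissue of origin, growth in culture and any difference in age or in cell division go together with the groups and cannot be told apart.

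Spinal cord is built of neurons, which signal through ion channels and transmitter release, and of glia. Oligodendrocytes wrap axons in myelin, astrocytes clear transmitter and buffer ions, and microglia are the resident macrophages. Fetal fibroblasts are mesenchymal cells that secrete collagen and other matrix, pull on it through actin stress fibers and divide rapidly in culture. In bulk RNA, fewer cells of a type and less RNA per cell of that type cannot be told apart.

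The 6 libraries held between 14291000 (second MEF) and 18967000 (first cord) recovered reads assigned to genes. More genes were listed above 0 in cord (25050 to 25794) than in MEF (21561 to 21587), and the 10 most abundant genes took 6.19 to 6.85% of reads in cord and 8.34 to 8.46% in MEF. Each gene was tested with limma on log2(FPKM + 0.5), two-sided, with Benjamini-Hochberg adjustment over the 15962 genes, and was called at an adjusted p under 0.05. By that rule 13988 genes (87.6%) were called, 7563 of them (47.4%) higher in cord and 6425 (40.3%) higher in MEF. The 3 cord and 3 MEF values of 14120 genes (88.5%) did not overlap. Because nearly every gene was called, a second rule also required a 4-fold difference, which 3820 genes (23.9%) passed, 2475 (15.5%) higher in cord and 1345 (8.43%) higher in MEF. The median difference over all genes tested was 0.12 toward cord on this log2 scale. It was -0.14 after quantile normalization and 0.07 after median-ratio scaling, and quantile normalization moved the split of 4-fold calls to 1963 against 1683. Differences on this scale understate the fold of genes near 0. A gene low in one group passed the level filter only through the other, so where a list lost members to the filter, a one-sided count among those tested follows in part from the filter. Lists whose members were all tested also held such genes. A MEF mean under 0.5 FPKM was found for 16 of 30 neuron, 17 of 26 oligodendrocyte and 10 of 22 astrocyte genes. The same held for 9 of 20 endothelial and 11 of 16 ionotropic glutamate receptor genes. A cord mean under 0.5 FPKM was found for 21 of 26 mitosis genes.

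The labels were checked first against markers that define the sources. Snap25, a membrane protein of synaptic vesicle release, stood at 299, 319 and 317 FPKM in the 3 cord libraries and at 0.0108, 0.0324 and 0 in the 3 MEF libraries. Gfap, the astrocyte intermediate filament, stood at 644, 629 and 614 in cord and 0.642, 0.783 and 0.957 in MEF. For both genes the 3 cord libraries lay close together and far above every MEF library. Col1a1, which encodes the main chain of type I collagen, had the opposite pattern, with 2.21, 1.76 and 1.8002 FPKM in cord and 2442, 2433 and 2405 in MEF. The log2 differences were 9.24 ± 0.0448 (SE) for Snap25, 8.93 ± 0.08302 for Gfap and -9.97 ± 0.0677 for Col1a1, with limma adjusted p-values of 8.31e-12, 7.99e-11 and 2.08e-11. The cord markers Chat and Mobp were listed at 0 in all 3 MEF libraries. The fibroblast regulators Prrx1, Twist1 and Twist2 had mean levels of 59.7, 48.002 and 13.7 FPKM in MEF and of 0.929, 0.378 and 0.06601 in cord. Snap25 lies at chr2:136713453-136782428 and Col1a1 at chr11:94936224-94953042 in GRCm38. Pdgfra, which marks both fibroblasts and oligodendrocyte precursors, was the least separated of the MEF markers, at 6.501 in cord and 21.4 in MEF.

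**Figure D1:**
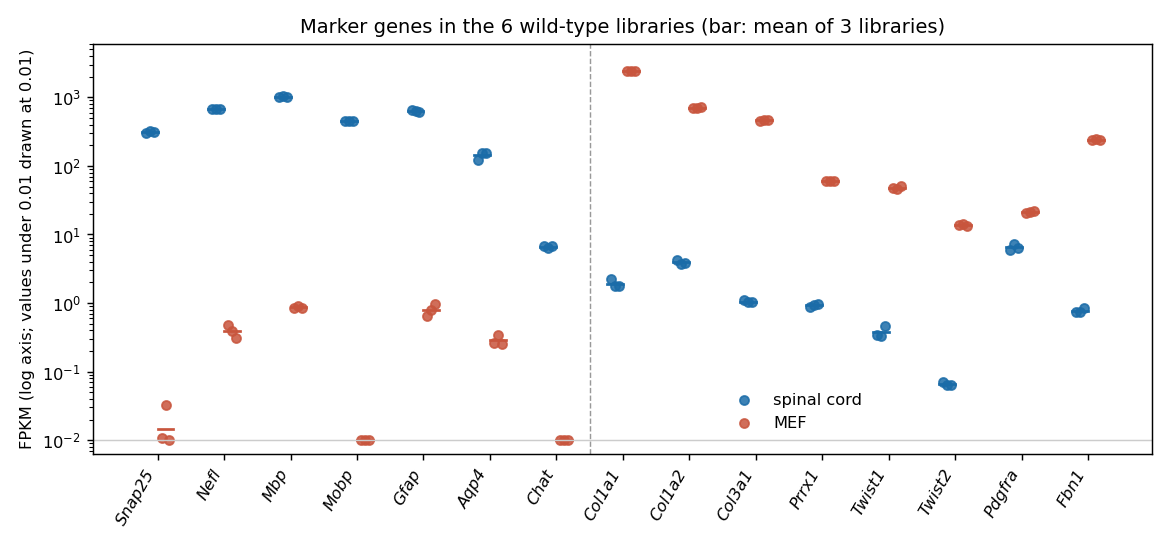
Levels of 15 marker genes used to check the sources, in FPKM on a log axis, with 1 point per library and a line at each group mean. The 7 cord markers, from Snap25 to Chat, were high in the 3 cord libraries and near or at 0 in MEF, and the 8 fibroblast markers, from Col1a1 to Fbn1, ran the other way.

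All 30 genes of the neuron list were called higher in cord, 28 of them by at least 4-fold, with a median difference of 5.45. Nefl, a neurofilament subunit that sets axon caliber, stood at 668, 672 and 669.6 FPKM in cord and 0.477, 0.391 and 0.309 in MEF. Cplx1, which clamps vesicle fusion, stood at 452, 448 and 438 in cord and was listed at 0 in all 3 MEF libraries. The microtubule regulator Stmn3 (449 against 0.0849), the neurofilament subunit Nefh (308 against 0.01803) and the translation factor Eef1a2 were also among the 15 largest differences of protein-coding genes toward cord. The members under 4-fold were Thy1 and Dlg4. Thy1, a surface glycoprotein that fibroblasts also carry, was nearly level between the groups, with 185, 180.1 and 186 FPKM in cord and 149, 148 and 143 in MEF, and Dlg4, a postsynaptic scaffold, had means of 20.4 and 5.12. The summed neuron list was 4822 to 4968 FPKM in cord and 245.1 to 247.8 in MEF, where Thy1 alone made up most of it.

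Genes of excitatory, inhibitory and cholinergic neurons were all detected in cord. Of the 15 genes on that list, 11 passed the level filter and were called higher in cord. Of these, 10 had a MEF mean under 0.5 FPKM, so they passed through cord alone and their count is no support for a direction. Slc6a5, the glycine transporter of glycinergic terminals, stood at 60.3, 65.4 and 62.9 FPKM in the cord libraries and at 0 in all MEF libraries. The GABA-synthesizing enzymes Gad1 and Gad2 had cord means of 24.4 and 20.5, with at most 0.0204 in MEF. Among glutamate transporters of vesicles, Slc17a6 (48.4 FPKM in cord) was far above Slc17a7 (2.06) and Slc17a8 (0.363, below the filter). Chat, the acetylcholine-synthesizing enzyme of motor neurons, stood at 6.79, 6.32 and 6.77 in cord, which is at least 144-fold above the level that 3 reads would give in a MEF library. The monoamine genes Tph2, Slc6a4 and Slc18a2, of neurons whose cell bodies lie in the brainstem, had cord means of 0.116, 0.0352 and 0.0333 FPKM and were not tested.

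Neuropeptides followed the same side. Of 20 listed, 17 passed the filter and were called higher in cord, 16 by at least 4-fold, but 15 of them had a MEF mean under 0.5 FPKM and passed through cord alone. Sst, which encodes somatostatin of dorsal horn neurons, stood at 101, 87.2 and 82.6 FPKM in cord and 0.102, 0.102 and 0.0965 in MEF. Penk, the enkephalin precursor, was the exception to the 4-fold rule, with 92.3, 83.2 and 87.8 in cord and 22.2, 21.96 and 23.6 in MEF. Every MEF library thus held Penk RNA at about the level of the cord peptides Npy (24.2) and Cck (26.7).

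Receptors and channels divided by class. All 16 ionotropic glutamate receptor genes listed were tested and called higher in cord. Of 8 metabotropic ones 6 were tested, and of 26 GABA and glycine receptor genes 19. The 6 and 18 of the 19 were called higher in cord, and 6 and 15 of those tested had a MEF mean under 0.5 FPKM. Glra1, the adult glycine receptor subunit, stood at 103, 104 and 101 FPKM in cord and 0 in MEF, at least 1149.5-fold apart. Among tested genes, 9 of 9 sodium channel, 65 of 71 potassium channel and 18 of 21 calcium channel genes were called higher in cord, against 0, 4 and 3 called higher in MEF. In these families 14, 93 and 26 genes were listed, and 7, 48 and 10 of those tested had a MEF mean under 0.5 FPKM. Of 17 synaptotagmins, the calcium sensors of vesicle fusion, 15 were tested and called higher in cord, 12 of them with a MEF mean under 0.5 FPKM. In the axonal transport list 24 of 26 genes were called higher in cord, 17 by at least 4-fold, led by Stmn3, Kif5a (257 against 0.271) and Mapt, which encodes tau (79.7 against 0.169). The 2 genes of that list called higher in MEF were the dynein heavy chain Dync1h1 (61.8 and 83.5) and the dynein intermediate chain Dync1i2 (20.2 and 22.4).

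The 26 oligodendrocyte and myelin genes were all called higher in cord by at least 4-fold, with a median of 6.32, or 6.80 with genes listed at 0 in MEF set to their bound. Mobp, a cytoplasmic myelin protein, stood at 447, 458 and 453 FPKM in cord and 0 in MEF, at least 14336-fold apart. Mog, on the outer myelin surface, stood at 145, 146 and 153 in cord and 0 in MEF, at least 1167-fold apart. The enzymes that make the galactolipids of myelin went with them: Ugt8a had means of 90.6 and 0.0108, and Fa2h 61.5 and 0. The lineage factors Olig1, Olig2 and Sox10 had cord means of 129, 28.7 and 39.5, each under 1 FPKM in MEF. Together the list took 2.63 to 2.69% of cord reads and 0.01% of MEF reads.

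Of 22 astrocyte genes, 21 were called higher in cord and 20 by at least 4-fold, with a median of 6.45. Aqp4, the water channel of astrocyte end-feet, stood at 124, 156 and 156 FPKM in cord and 0.258, 0.341 and 0.257 in MEF. The glutamate transporter Slc1a2 stood at 231, 270.2 and 243 and 0.117, 0.151 and 0.106. In both genes the first cord library was the lowest of the 3, and no MEF library came near it. Sox9, an astrocyte factor that cartilage precursors also use, was the member called higher in MEF, with 11.8, 10.9 and 10.7 in cord and 15.2, 15.7 and 14.8 in MEF. The gap junction gene Gja1 was shared, with means of 44.1 and 23.2 (log2 difference 0.91 ± 0.0381).

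The microglia list did not divide cleanly. Of 20 genes, 11 were called higher in cord and 7 higher in MEF, with a median of 0.55, and the summed list was 416 to 438 FPKM in cord and 388 to 398 in MEF. P2ry12, a purine receptor of resting microglia, stood at 13.01, 14.1 and 16.04 in cord and 0.661, 0.922 and 0.437 in MEF. Siglech was listed at 0 in all MEF libraries and had a cord mean of 4.299. Pan-macrophage genes were present in every library: Csf1r, the receptor for macrophage growth factor, stood at 23.9, 22.6 and 22.9 in cord and 12.3, 12.2 and 12.6 in MEF. The complement gene C1qb stood at 60.3, 51.4 and 54.3 and 55.99, 56.9 and 55.7, groups that overlapped (limma adjusted p = 0.693, or 0.0444 with -0.09 without the first cord library). Tmem119, used as a microglia marker in brain, ran the other way, with 12.5, 12.6 and 12.4 in cord and 57.97, 59.01 and 58.2 in MEF. Of 8 other macrophage genes, picked after values were seen, 7 were called higher in MEF: Lyz2 (17.8 and 138), Cd68 (4.76 and 36.1), Lgals3 (3.51 and 64.98), Gpnmb (0.448 and 37.8), Mrc1 (0.642 and 8.17), Adgre1 (2.2504 and 10.2) and Cd14 (2.82 and 5.71), given as cord and MEF mean FPKM. Cd163 was below the filter, with 0.506, 0.582 and 0.413 in cord and 0 in every MEF library. The part of macrophages in the MEF values of other genes was not tested.

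Other cells of cord tissue appeared at lower levels. The 4 hemoglobin genes and Alas2, the 5 tested genes of the red blood cell list, were called higher in cord, and each had a MEF mean under 0.5 FPKM. Hbb-bs stood at 189.6, 175 and 189 FPKM in cord and 0 in every MEF library. Hemoglobin genes come in near-identical copies, among which reads may be split. The endothelial junction genes Cldn5 and Pecam1 had cord means of 19.96 and 5.203, against 0.0173 and 0.0463 in MEF. Endothelial genes were called higher in cord in 15 of 20 cases, and higher in MEF in 4, namely Flt1, Eng, Itm2a and Ly6a. Genes of motile cilia, carried by the ependymal cells that line the central canal, summed to 40.0 to 42.1 FPKM in cord and 2.18 to 2.81 in MEF, with Foxj1 at 12.4 and 0.219. Of 18 such genes 12 passed the filter and were called higher in cord, 10 of them with a MEF mean under 0.5 FPKM. Gjb1, a gap junction gene of myelinating cells, had a cord mean of 62.97. Of 13 Schwann cell genes 10 were tested, with 5 called higher in cord, 3 higher in MEF and 2 not called. The summed Schwann cell list was 188 to 205 FPKM in cord and 77.7 to 83.2 in MEF, where Gjb1 was listed at 0. Skeletal muscle genes summed to 19.7 to 25.1 in cord and to 26.2 to 28.1 in MEF, with 6 of 8 tested genes called higher in cord and 2 higher in MEF. In cord they included Ckm, an enzyme of muscle fibers, at 2.09, 1.65 and 1.62, while the muscle regulator Myod1 had a cord mean of 0.0366.

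Fibroblast identity genes were called higher in MEF in 20 of 21 tested cases, 18 by at least 4-fold, with a median of -4.40. The exception was Thy1. Pdgfrb, a receptor of mesenchymal cells, had means of 2.29 and 115 FPKM, the surface protein Cd248 0.584 and 146, and vimentin (Vim) 31.3 and 619. Col1a1 was the most abundant protein-coding gene of the MEF libraries, ahead of mt-Co1 (1673) and the elongation factor Eef1a1. Among the most abundant protein-coding genes in cord were 6 mitochondrial transcripts, Sparcl1, Mbp and Fth1.

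All 22 collagens on the list were called higher in MEF, 21 by at least 4-fold, with a median of -5.93, and they took 4.75 to 4.86% of MEF reads against 0.03% in cord. Col3a1, which forms fibrils with type I collagen, stood at 1.103, 1.02 and 1.03 FPKM in cord and 456, 466 and 469.6 in MEF. Lox, the enzyme that crosslinks collagen and elastin, stood at 0.139, 0.141 and 0.172 and 558, 559.6 and 553. Serpinh1, the collagen chaperone of the endoplasmic reticulum, stood at 18.2, 15.4 and 15.8 and 1003, 991 and 975. The folding and crosslinking list, of which these are members, had 21 of 23 genes called higher in MEF. Pcolce2 was its single member called higher in cord, with means of 4.83 and 3.02.

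Of 26 matrix glycoproteins 24 were called higher in MEF and 2 higher in cord. Fn1, the fibronectin of adhesion fibrils, stood at 6.77, 6.94 and 6.58 FPKM in cord and 768, 792 and 791 in MEF, and Thbs1, a thrombospondin, had means of 1.42 and 871. The 2 exceptions were Tnr (13.8 against 0.0186), a tenascin of nets around neurons, and Sparcl1 (1156 against 3.72), secreted by astrocytes. Of 13 genes of perineuronal and neural matrix 11 were tested, and 8 were called higher in cord. Of those tested, 6 had a MEF mean under 0.5 FPKM and passed the filter through cord alone. Among the 8 were the lectican Bcan (64.3 against 0.0538) and the link protein Hapln2 (69.9 against 0). The 3 members of this list called higher in MEF were Vcan, Acan and Has2. Among proteases and their inhibitors 16 of 23 were called higher in MEF, with Mmp2 at 1.44 and 125 and Timp1 at 0.622 and 199. The other 7 were called higher in cord, Timp4, Mmp24, Mmp15 and Adamts4 by at least 4-fold.

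The actin and adhesion list was called higher in MEF in 29 of 30 cases, 22 by at least 4-fold, with a median of -3.95. Acta2, the smooth muscle actin of contractile fibroblasts, stood at 3.87, 3.88 and 3.73 FPKM in cord and 1101, 1104 and 1112 in MEF (log2 difference -7.998 ± 0.0282). Cnn2, a calponin, stood at 3.14, 2.97 and 3.14 and 304, 305 and 311. Csrp1, a LIM protein, was the exception, at 241, 242 and 239 in cord and 223, 217 and 226 in MEF. The 20 targets and components of YAP and TEAD signaling, which responds to cell spreading and tension, were all called higher in MEF, 14 by at least 4-fold. Yap1 had means of 3.01 and 27.7, and its target Ankrd1 0.0143 and 7.103.

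Actin genes are known targets of serum response factor, which binds the CArG box (CC, then 6 bases of A or T, then GG). RefSeq promoters of GRCm38.p6, from 250 bases before to 50 after the start, were found for 27 of the 30 genes, and 5 of them (18.5%) held a CArG box. Over all 10686 matched promoters of tested coding genes the share was 1.54%. Those promoters cover 79.2% of the tested coding genes, under the 80% set for a check over a whole class, so here and in the motif counts below the share over all is background and void as a comparison. The genes with a box were Cnn2, Myl9, Vcl, Srf and Actg1. The 100 bases before the start are shown for 3 of these genes, because the box can be seen in each, with the box in capitals on either strand. They lie at chr10:79988500-79988599 (Cnn2, plus strand), chr17:46556163-46556262 (Srf, minus) and chr11:120348496-120348595 (Actg1, minus) in GRCm38.
Cnn2: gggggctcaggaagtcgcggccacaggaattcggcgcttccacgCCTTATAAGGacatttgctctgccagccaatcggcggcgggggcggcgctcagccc
Srf: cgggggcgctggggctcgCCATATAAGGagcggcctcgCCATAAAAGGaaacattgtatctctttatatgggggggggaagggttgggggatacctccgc
Actg1: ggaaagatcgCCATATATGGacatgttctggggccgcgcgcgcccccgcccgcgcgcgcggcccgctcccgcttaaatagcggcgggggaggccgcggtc
Srf held 2 boxes in this window. It had means of 7.86 and 25.9 FPKM, a smaller difference than that of Cnn2. A match of letters is no evidence of binding, and the search allowed no mismatch, so near matches were not counted. Acta2, the largest difference of the list on the log2 scale of the test, held no exact match in its window. That window does hold the near matches ccctatatgg and ccttgtttgg.

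RNA of cell division genes was high in the MEF libraries and low in the cord libraries. Of 26 mitosis genes 25 were called higher in MEF, each of the 25 by at least 4-fold, with a median of -4.49. All 26 were tested, but 21 had a cord mean under 0.5 FPKM and passed the level filter through MEF alone. Cdk1, the kinase that drives entry into mitosis, stood at 0.246, 0.247 and 0.194 FPKM in cord and 19.3, 18.4 and 18.7 in MEF. Cdc20, which activates the anaphase ligase, stood at 0.798, 0.507 and 0.402 and 59.8, 60.5 and 63.2. Top2a, a topoisomerase of chromosome segregation, stood at 0.306, 0.38997 and 0.235 and 38.6, 40.2 and 40.3. In these 3 genes the libraries of a group lay close together, and every MEF library stood far above every cord library. Anln, an actin-binding protein of the cleavage furrow that oligodendrocytes also carry, was the exception, with 36.6, 39.01 and 38.8 in cord and 21.3, 20.7 and 20.99 in MEF. All 29 replication genes were called higher in MEF, 21 by at least 4-fold, with a median of -2.73. Mcm6, a subunit of the replicative helicase, stood at 1.62, 1.67 and 1.303 and 36.6, 35.9 and 36.01, and Pcna, the sliding clamp, which also serves in repair, had means of 20.6 and 55.1.

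Promoters of mitosis genes are known to carry a CCAAT box and a cell cycle homology region (CHR, searched as TTTGAA or TTCGAA), and those of replication genes an E2F site (searched as TTTCGCGC or TTTGGCGC), on either strand. Of the 26 mitosis genes 21 had a RefSeq promoter, and 17 of the 21 (81.0%) held a CHR. CCAAT was also in 17 (81.0%), and both in 15 (71.4%). Over the 10686 promoters, given as background only, the shares were 16.0%, 42.9% and 6.66%. In the 250 bases before the start alone, the CHR was in 9 of the 21 and in 14.3% of all. Of 24 replication genes with a promoter 8 (33.3%) held an E2F letter match, and 4 did in the 250 bases before the start. Over all promoters the shares were 1.71% and 1.41%. The 100 bases before the start are shown for 5 mitosis genes whose window holds both elements, with CCAAT and CHR in capitals in either orientation. Prc1, where the window of 1 of 2 annotated starts also holds both, is not shown. Mcm6 is shown for its E2F letters, and in it these alone are in capitals, although it also holds CCAAT on the other strand. The windows lie at chr10:69352913-69353012 (Cdk1, minus strand), chr4:118437344-118437443 (Cdc20, minus), chr11:99024190-99024289 (Top2a, minus), chr2:164769829-164769928 (Ube2c, plus), chr19:37376282-37376381 (Kif11, plus) and chr1:128359706-128359805 (Mcm6, minus), all in GRCm38.
Cdk1: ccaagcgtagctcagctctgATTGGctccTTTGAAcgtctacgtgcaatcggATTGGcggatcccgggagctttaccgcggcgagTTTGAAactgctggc
Cdc20: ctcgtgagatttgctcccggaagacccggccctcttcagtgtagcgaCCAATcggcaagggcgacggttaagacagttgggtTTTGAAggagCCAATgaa
Top2a: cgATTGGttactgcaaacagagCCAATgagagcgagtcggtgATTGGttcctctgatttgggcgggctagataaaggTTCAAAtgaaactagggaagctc
Ube2c: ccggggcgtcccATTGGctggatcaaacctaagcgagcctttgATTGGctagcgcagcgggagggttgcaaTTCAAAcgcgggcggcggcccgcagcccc
Kif11: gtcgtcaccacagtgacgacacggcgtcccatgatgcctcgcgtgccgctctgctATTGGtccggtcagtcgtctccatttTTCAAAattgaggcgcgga
Mcm6: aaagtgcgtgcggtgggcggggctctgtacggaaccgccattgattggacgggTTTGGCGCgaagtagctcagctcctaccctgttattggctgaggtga
Ube2c, the ubiquitin-conjugating enzyme of the anaphase ligase, had means of 0.179 and 27.8 FPKM, and Kif11, the motor that separates spindle poles, 0.284 and 10.6.

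Genes that restrain division were also mostly higher in MEF. Of 15 such genes 12 were called higher in MEF and 3 higher in cord. Cdkn2a, which encodes p16 and ARF, stood at 0.0942, 0.173 and 0 FPKM in cord and 20.3, 19.1 and 20.1 in MEF. Trp53 had means of 3.84 and 35.05, and the p53 target Cdkn1a 17.2 and 73.9. The 3 called higher in cord were the retinoblastoma family genes Rb1 (6.84 against 2.697) and Rbl2 (10.7 against 5.62) and the kinase inhibitor Cdkn2d (24.5 against 12.6). Their family member Rbl1 was called higher in MEF, at 0.471 and 5.09. Of 19 p53 targets 18 were called higher in MEF, 8 by at least 4-fold, and the exception was Sesn1.

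**Figure D2:**
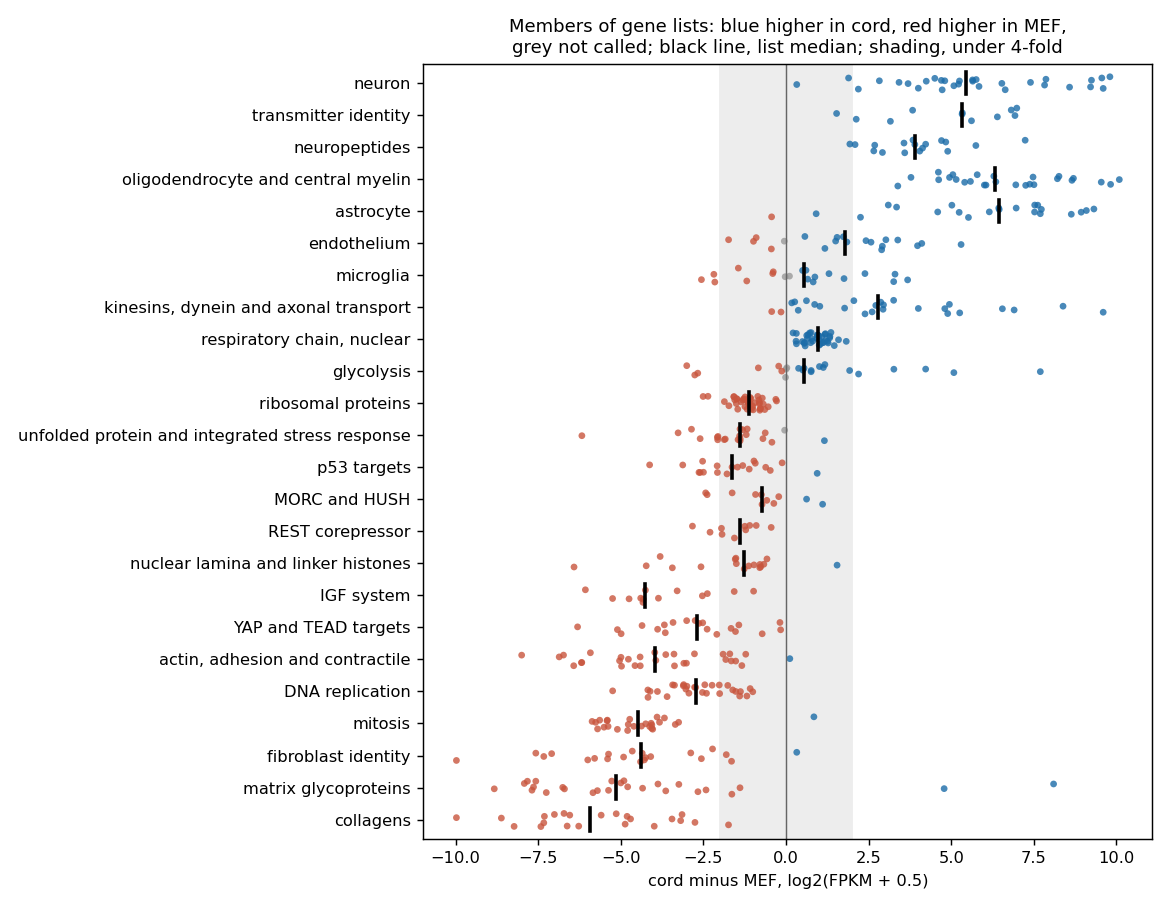
Differences of the tested members of selected gene lists, as log2(FPKM + 0.5) in cord minus MEF, with 1 point per gene, colored by its call, a line at the list median and shading under 4-fold. Neural lists lay to the cord side (median 5.45 for neuron genes and 6.32 for oligodendrocyte genes), collagen and mitosis lists to the MEF side (-5.93 and -4.49), and the microglia list spread over both.

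Many functions were present in both sources through different members of a gene family. In 32 pairs of related genes, the first mostly a form known from neural or resting tissue and the second a more broadly expressed form, the ratio of the first to the second was higher in cord in all 32, and in 21 the more abundant member changed between the groups. These pairs were chosen as known switches, so the direction is no independent result. In 20 pairs the members were called in opposite directions. For lactate dehydrogenase, Ldhb stood at 415, 404 and 406 FPKM in cord and 21.5, 20.8 and 21.6 in MEF, and Ldha at 33.7, 31.7 and 31.98 and 226, 223 and 219. For beta tubulin, Tubb4a had means of 546 and 1.198 and Tubb5 of 119 and 488, while the fibroblast form Tubb6 had 1.55 and 119. Ezh1 and Ezh2, alternative catalytic subunits of the Polycomb complex that methylates histone H3, had means of 12.3 and 2.29 and of 0.848 and 8.74. Snap25 and Snap23, fusion proteins of neurons and of most other cells, had 312 and 0.0144 against 4.98 and 13.4.

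**Figure D3:**
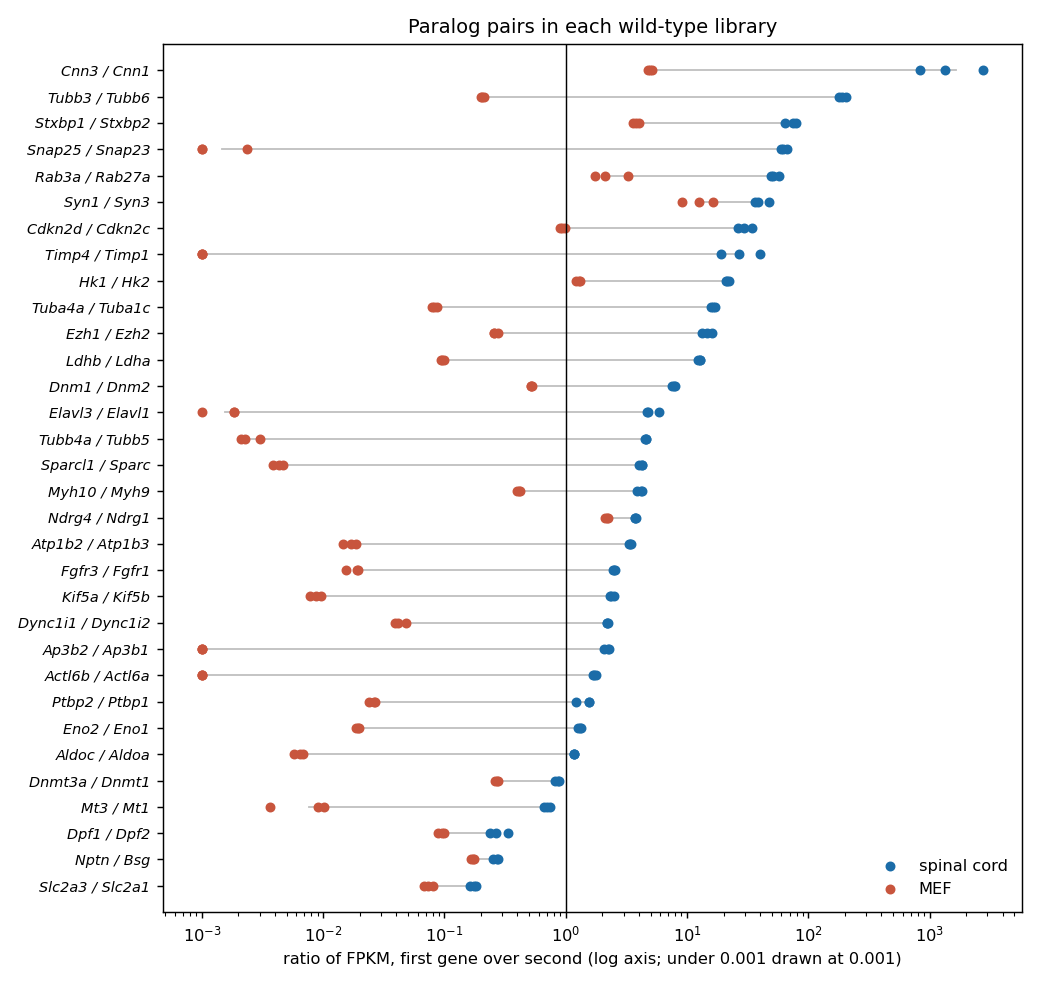
Ratio of the FPKM of the first gene to that of the second in each of 32 pairs, on a log axis, with 1 point per library and a grey line between the group means. Cord libraries lay to the right of MEF libraries in every pair shown, and on the other side of 1 in 21 pairs.

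Regulators of neuronal splicing went with these switches. Ptbp1, which blocks neuronal exons in other cells, stood at 8.76, 7.37 and 7.18 FPKM in cord and 122, 120.2 and 122 in MEF, and its neuronal relative Ptbp2 at 10.6, 11.4 and 11.1 and 2.94, 3.17 and 3.23. The groups did not overlap in either gene, and the log2 differences were -3.89 ± 0.0698 and 1.68 ± 0.0511. Of 30 splicing and RNA-binding regulators tested, 19 were called higher in cord and 10 higher in MEF. Those in cord were led by Elavl3 (47.5 against 0.0174), Rbfox1 (45.7 against 0.405) and Rbfox3, which encodes the nuclear antigen NeuN. Those in MEF were led by the fetal growth regulators Igf2bp1, Igf2bp2 and Igf2bp3, at 10.03, 21.9 and 12.9 in MEF and at 0, 0.0927 and 0 in cord. Igf2bp3 was at least 552-fold apart.

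Rest, the repressor that keeps neuronal genes silent outside the nervous system, stood at 1.71, 2.15 and 1.702 FPKM in cord and 15.5, 16.7 and 16.3 in MEF (log2 difference -2.83 ± 0.0805, limma adjusted p = 1.54e-08). All 10 genes of the REST corepressor list were called higher in MEF, 2 of them by at least 4-fold, Rest and the small phosphatase Ctdsp2 (13.5 against 68.4), with a median of -1.40. REST binds the RE1 element, searched here as the blocks TTCAGCACC, GGACAG and GCC with 2 free bases after the first and 1 after the second, 18 fixed positions, at most 3 mismatches and either strand. It was found in 27 of the 10686 promoters: in 19 of the 1680 of genes called 4-fold higher in cord, 0 of the 977 of genes called 4-fold higher in MEF and 8 of the 8029 others. With promoters matched for 79.2% of the tested coding genes, these shares too are void as a comparison, and the matches are described only. Genes below were picked by their match, after their values were seen. Fixed positions are in capitals, as read 5′ to 3′ along the strand of the match.
Syn1, chrX:20921130-20921150, minus strand: TTCAGCACCgcGGTCAGaGCC
Osbp2, chr11:3774791-3774811, plus strand: TTCAGCACCgcGGACAGcGGC
Rasgrf1, chr9:89909588-89909608, minus strand: TTCAGCAGCgcGGACAGgGAC
Gria2, chr3:80802989-80803009, plus strand: TTTAGCACCgcGGACAGcGCT
Scamp5, chr9:57468194-57468214, minus strand: TTTAGCACCacGGACAGcTCC
Crip2, chr12:113140081-113140101, plus strand: TTCAGCACCacAGACAGgACC
Syn1, a synaptic vesicle protein with 1 mismatch, stood at 86.8, 79.6 and 80.3 FPKM in cord and 1.26, 1.27 and 0.928 in MEF. Gria2, an AMPA receptor subunit with 2 mismatches, stood at 12.1, 14.2 and 13.7 and 0.0377, 0.00944 and 0.0179. The other cord genes shown had mean levels in cord and MEF of 5.899 and 0.186 (Osbp2), 37.7 and 0.00221 (Rasgrf1, a Ras exchange factor) and 67.98 and 9.04 (Scamp5, a vesicle membrane protein). Crip2, a LIM protein, is shown because it held a match without such a difference, at 17.4 and 20.2 FPKM.

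Chromatin lists differed in their side. Morc2a, the ATPase mutated in the rest of the series and wild type here, stood at 5.61, 5.66 and 5.71 FPKM in cord and 18.5, 18.8 and 18.3 in MEF (log2 difference -1.63 ± 0.0354, limma adjusted p = 3.52e-09). Of 11 tested genes of the MORC family and of the HUSH silencing complex with its partners, 9 were called higher in MEF, with a median of -0.72. Trim28, the corepressor of zinc finger proteins, stood at 20.2, 19.1 and 19.7 and 112, 107 and 106. The HUSH subunit Mphosph8 went the other way, at 23.6 and 10.7, as did Fam208a, with a log2 difference of 0.62. Uhrf1, which guides maintenance methylation after replication, had means of 0.315 and 33.5, and Dnmt1 6.598 and 34.2. Of 13 tested DNA methylation genes 8 were called higher in MEF and 2 higher in cord. Polycomb genes were called 6 to 8, with a median of 0.04. Nuclear lamina and linker genes were called higher in MEF in 16 of 17 cases, and Syne1 was the exception. Lmna, the lamin of stiff tissue, had means of 8.31 and 164, and Hmga2, a fetal architectural factor, stood at 0.0815, 0.0798 and 0.121 in cord and 52.2, 49.7 and 48.4 in MEF. In the BAF remodeling complex 9 genes were called higher in cord and 8 higher in MEF, with a median of 0.58 that was -0.0616 after quantile normalization. Its subunit Actl6b had means of 6.13 and 0 and Actl6a of 3.57 and 12.8, the known exchange of a subunit in neurons.

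Hox genes, which record position along the body axis, were present in both groups with different profiles. Of 39 listed, 33 were tested, and 23 were called higher in cord and 9 higher in MEF, with a median of 0.75. Of those tested, 8 had a cord mean and 1 a MEF mean under 0.5 FPKM. These passed the filter through the other group alone, so their calls are no support for a direction. Hoxb8 stood at 80.9, 73.6 and 72.1 FPKM in cord and 4.22, 3.898 and 3.35 in MEF, and was the highest Hox gene of the cord. Hoxc8 (37.8 and 6.59) and Hoxb9 (33.4 and 13.3) followed. At the 5′ ends of the clusters the order turned over. Hoxd13, the most terminal gene of its cluster, stood at 0.0222, 0 and 0 in cord and 15.3, 14.7 and 15.1 in MEF. Hoxa11 was listed at 0 in all cord libraries and stood at 5.25, 5.39 and 4.56 in MEF, at least 60.6-fold apart. Hoxa13, Hoxc12, Hoxd11 and Hoxd12 were also at 0 in cord, with MEF means of 2.42, 1.03, 1.27 and 1.46. Hoxa10 marked the turn in its cluster, with 4.37, 4.49 and 5.01 in cord and 8.62, 8.32 and 7.66 in MEF, while Hoxa9 was still higher in cord (7.28 and 2.249).

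**Figure D4:**
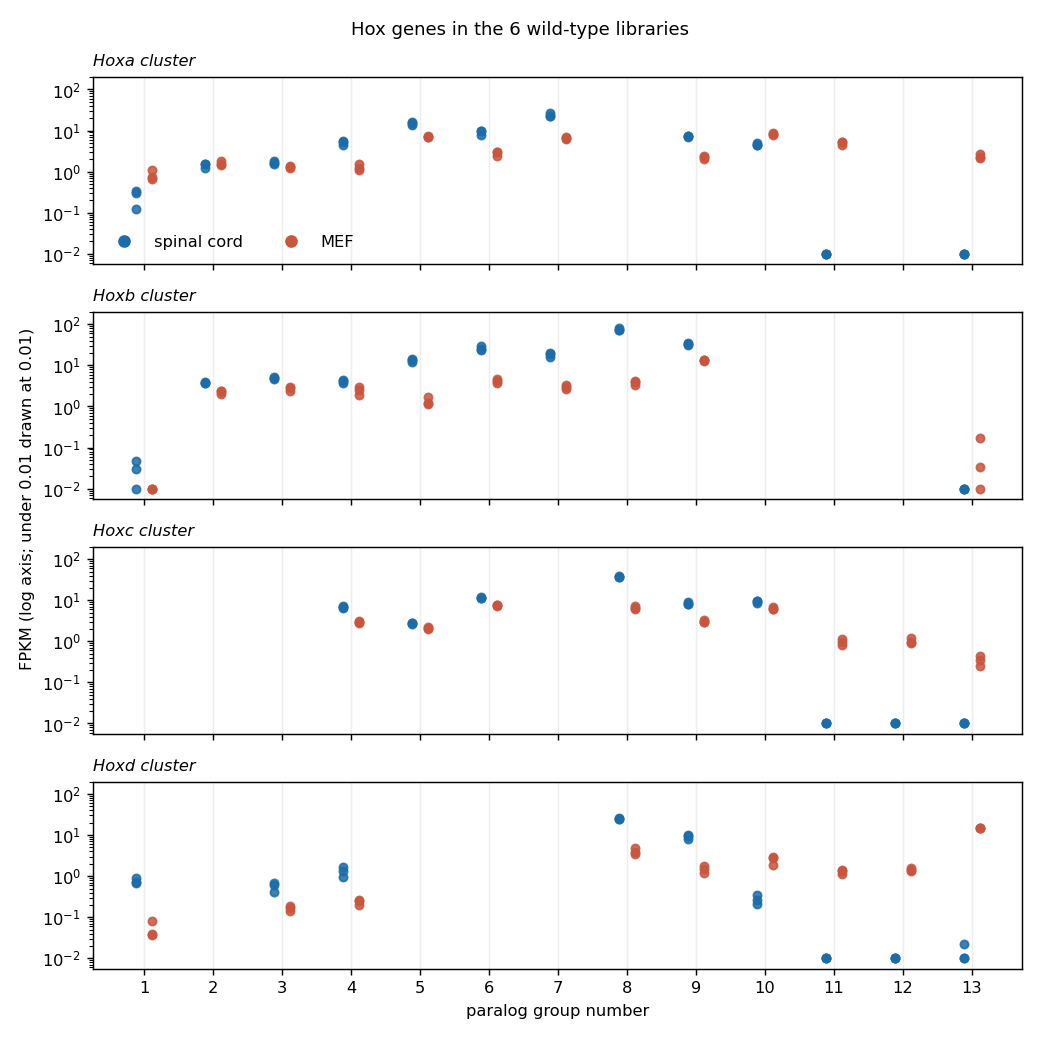
Levels of the Hox genes by cluster and paralog group, as FPKM on a log axis, with 1 point per library. Cord libraries lay above MEF libraries in groups 4 to 9, with Hoxb8 the highest, and MEF libraries lay above cord in groups 11 to 13 of the A, C and D clusters.

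Other patterning factors also differed between the sources. Of 39 tested, 29 were called higher in MEF and 10 higher in cord, with a median of -2.19. Of those tested, 21 had a cord mean and 8 a MEF mean under 0.5 FPKM. These passed the filter through the other group alone, and their count is no support for a direction. MEF carried factors of limb, body wall and face, among them Tbx15 (34.9 FPKM, 0.0537 in cord), Irx1 (17.5 and 1.68), Pitx1 (9.69 and 0.00848), Six2 (12.8 and 0.0107), and Hand2 and Alx1, both listed at 0 in cord. Cord carried factors of spinal interneurons, among them Pax2 (4.8001 and 0.03905), Lhx5 (2.98 and 0.0182) and Tlx3 (3.37 and 0), together with Nkx2-2 (6.12 and 0.0246), also a factor of oligodendrocytes.

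Imprinted genes showed no common side, with 21 of 39 called higher in cord, 15 higher in MEF and 9 by at least 4-fold on each side. H19, a noncoding RNA of fetal growth, had the largest difference of any gene tested on the log2 scale of the test. It stood at 0.718, 0.714 and 0.583 FPKM in cord and 1807, 1815 and 1866 in MEF (log2 difference -10.61 ± 0.0509). This scale understates the fold of genes at low levels. By fold, Mobp was wider apart (at least 14336-fold). The neighbor of H19 is Igf2, a growth factor expressed from the other parental copy. It stood at 0.154, 0.189 and 0.167 in cord and 47.9, 45.02 and 40.9 in MEF. Mest, Grb10, Igf2r, Plagl1 and Dlk1 were also 4-fold higher in MEF. Snrpn (79.4 and 1.91), Nnat, Peg13 (83.7 and 6.44) and the noncoding Meg3 (92.005 and 17.8) were 4-fold higher in cord. These are total levels, and allele of origin was not measured. All 13 tested genes of the IGF system were called higher in MEF, 11 by at least 4-fold, and Igfbp2, the most abundant binding protein, stood at 17.1 and 254.

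Genes of energy metabolism were mostly called higher in cord. All 38 nuclear genes of the respiratory chain were called higher in cord and none reached 4-fold, with a median of 0.96 (Cox8a 319 and 148, Ndufb3 87.4 and 24.3). Of 10 tested mitochondrially encoded genes 9 were called higher in cord, and mt-Nd6, on the opposite strand of that genome, was called higher in MEF. The call of mt-Nd6 was lost when the first or second MEF library or the first cord library was left out (limma adjusted p = 0.0551 to 0.0632), and its difference was 0.02 in the libraries with the Morc2a change. mt-Co1 stood at 3862, 4771 and 4626 FPKM in cord and 1633, 1709 and 1675 in MEF, and the first cord library was the lowest of the 3. Glycolysis genes did not move as a block: 14 of 23 were called higher in cord and 6 higher in MEF, with Pfkm at 119.7 and 12.004, Aldoc, an astrocyte form, at 441 and 1.63, and Hk2 at 1.42 and 11.7. Pgk1, a step shared by all cells, was level (175, 172 and 174 in cord and 173, 172 and 181 in MEF, limma adjusted p = 0.7).

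Genes of growth were higher in MEF. All 44 tested ribosomal protein genes were called higher in MEF with a median of -1.12, 2 of them, Rplp0 (149 and 849) and Rps2 (95.4 and 492), by at least 4-fold. Of 18 aminoacyl tRNA synthetases 16 were called higher in MEF, with a median of -1.51, and of 16 serine and one-carbon genes 13, led by Shmt2 (6.48, 5.67 and 5.84 in cord and 90.7, 83.3 and 83.3 in MEF). The other 3 serine and one-carbon genes were called higher in cord, 1 of them by at least 4-fold. This was Aldh1l1, an astrocyte marker, at 17.8 and 1.31. Genes of the unfolded protein and integrated stress responses were called higher in MEF in 20 of 22 cases. Atf4, the factor at their center, had means of 34.2 and 144, and its target Trib3 0.234 and 52.4. Dnajb9 was the single member called higher in cord (24.8 and 10.8).

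Antioxidant genes divided, with 20 of 34 called higher in cord and 13 higher in MEF. The metallothionein Mt3 of neural tissue had means of 180.4 and 0.403 FPKM, and Mt2 438 and 63.3. Iron storage switched its subunits, since the ferritin heavy chain Fth1 had 839 and 161 and the light chain Ftl1 125 and 725. The heme oxygenase Hmox1 stood at 5.01, 4.09 and 4.45 in cord and 59.5, 56.98 and 56.9 in MEF. Ferritins have processed copies in the genome, so reads of Fth1 and Ftl1 may be split among them.

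Genes of inherited neuropathy, the disease group to which MORC2 belongs, had no common side: 23 of 50 tested were called higher in cord and 24 higher in MEF, with a median of 0.03. By 4-fold, 10 were higher in cord and 1, Egr2 (0.233 and 2.61), higher in MEF. Those in cord included Nefl, Kif5a, Kif1a, Kif1b, Gdap1 (20.5 and 0.0555), Ndrg1 (69.1 and 6.06) and the gap junction gene Gjb1. Pmp22, the most often affected gene of the group, stood at 67.9, 69.2 and 67.6 in cord and 71.97, 67.5 and 66.6 in MEF, groups that overlapped (limma adjusted p = 0.835). The synthetases Gars (50.5 and 156) and Aars (24.6 and 72.3) and the cochaperone Bag3 (15.1 and 47.01) were called higher in MEF, as was Morc2a.

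Difference ran with gene length. Coding genes that span under 10 kb had a median log2 difference of 0.07 (3170 genes), and those of 10 to 30 kb and 30 to 100 kb had -0.02 (4301) and 0.06 (3921). The median was 0.42 for the 1596 genes of 100 to 300 kb and 1.76 for the 502 genes of 300 kb and over. Of the last group 45.4% were called 4-fold higher in cord and 5.38% higher in MEF, against 15.3% and 10.03% of genes under 10 kb. Genes of the neural cell type, channel, receptor, protocadherin and synaptotagmin lists were then left out, a choice made after the values were seen. Of the 502 genes of 300 kb and over, 468 remained, with a median of 1.64 and with 42.9% and 5.77% called. Few genes were removed, and neural genes outside those lists stayed in. The values therefore cannot tell whether the trend holds outside neural genes. Rbfox1, described above, is among the longest of the neural genes and spans 1526172 bases.

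**Figure D5:**
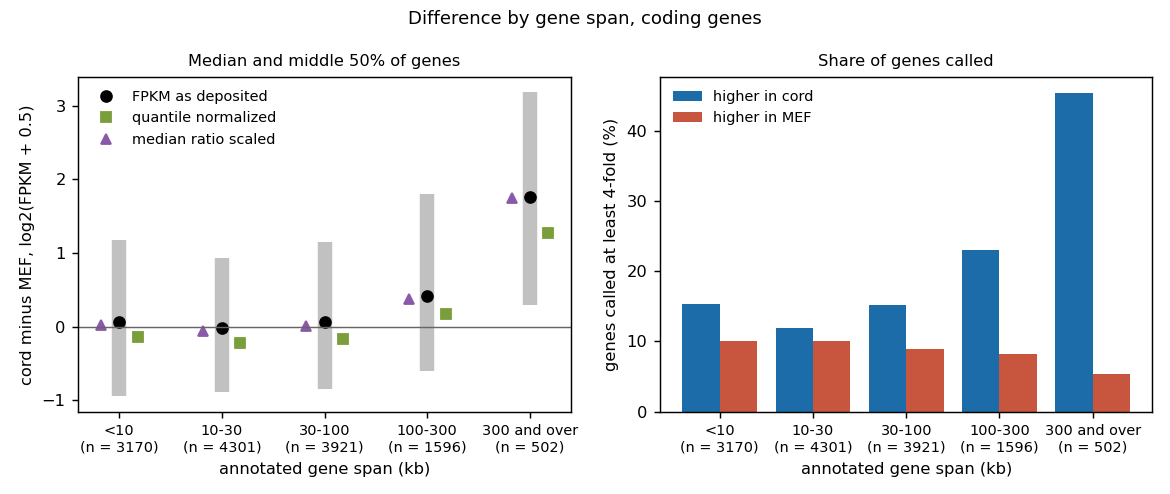
Difference between cord and MEF by the genomic span of coding genes, over 5 bins in kb. On the left, points are medians of log2(FPKM + 0.5) in cord minus MEF under 3 scalings and bars the middle 50% of genes; on the right, bars are the shares called 4-fold, which reached 45.4% in cord at 300 kb and over.

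Noncoding classes leaned in different directions. Of 317 tested lincRNAs, 225 were called higher in cord and 53 higher in MEF, with a median of 1.27. Antisense RNAs were called higher in cord in 189 of 285 cases, but whether the authors' counting used strand was not given in the sources used here, so reads of their partners cannot be told apart. Processed pseudogenes leaned to MEF, with 414 of 832 called higher there and 172 higher in cord. Processed pseudogenes can take reads of the genes they were copied from, among them ribosomal and other growth genes. The parent genes of these 832 were not looked up, and the part of such reads in the lean was not tested.

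Some genes were detected on 1 side alone. By the rule of 0 in all 3 libraries of a group and at least 1 FPKM in all 3 of the other, 330 genes (199 coding) were seen in cord alone and 46 (29 coding) in MEF alone. The cord set was headed by Mobp, Cplx1 and Hbb-bs, with Sncb, Pvalb and Resp18 among the next, and the MEF set by Igf2bp3, Col10a1 (10.8, 11.1 and 11.6) and Igf2bp1. MEF libraries were the shallower group, and a count of 0 allows an expected count of up to 3 reads, for counting error only.

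The protein-coding genes nearest to equal above 100 FPKM show how close the groups can lie. The 5 smallest differences were those of Pgk1, Bsg, Ywhae, Hint1 and Tuba1a. Tuba1a, the main alpha tubulin, had a log2 difference of -0.09 that was still called (limma adjusted p = 0.0111), while Bsg, a chaperone of lactate transporters, was not (-0.05, limma adjusted p = 0.213). Leaving out the second MEF library ended the call of Tuba1a (limma adjusted p = 0.0555), leaving out the first cord library made one of Bsg (0.0255) and leaving out the second cord library one of Hint1 (0.0236). Of the 3820 genes called 4-fold, 3814 had the same direction and 3788 were called the same way between the 3 cord and 2 MEF libraries with the Morc2a change.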

How the data were processed

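The authors deposited 1 table of FPKM values for 55487 gene identifiers in 11 libraries, from RNA extracted with TRIzol and a directional library kit, per the labels' protocols. The submitters' processing notes name Trimmomatic 0.39, HISAT2 2.2.1, Picard 2.25.5, HTSeq 0.11.3 and the build GRCm38. The annotation release, the strand setting and any selection of RNA were not given in the sources used here, so antisense and overlapping genes and near-identical copies are uncertain.

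Whole reads were recovered by multiplying each deposited FPKM by the gene's exon length in GENCODE M21 (55227 identifiers found, 260 not), and 98.5 to 98.6% of values came out whole within 0.05. That gave 14291000 to 18967000 reads a library. Within each group, every pair of libraries differed beyond counting noise, but by unlike amounts. The chi-square per degree of freedom of recovered reads was 1.26 to 1.80 for the MEF pairs. It was 3.70 and 4.67 for the cord pairs with the first cord library and 1.51 for the other cord pair. The test was limma 3.58.1 (R 4.3.3), fitted with its trend and robust options to log2(FPKM + 0.5) of every gene whose mean was at least 0.5. Genes at 0 in a group got a bound from a floor of 3 reads a library, for counting error only. The test was checked on simulated data. Promoters and RE1 elements were searched in RefSeq sequences of GRCm38.p6.

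The members, 57 gene lists, 14 families and 32 pairs were chosen with earlier results of these data known. Some marker genes and gene pairs are not reported here. Genes named belong to those lists, are among the protein-coding genes with the 15 largest differences each way (mean of at least 10 FPKM in the higher group, clone and predicted names left out), the 10 highest levels in each group or, from 100 FPKM, the 5 smallest differences, or are said to be picked after their values were seen. Alternatives were pseudocounts of 0.1 and 1, other filters and scalings, a replicate block, each library left out, limma treat, the 11 libraries together, the libraries with the Morc2a change and, added after the data were seen, voom on recovered reads and a shorter promoter.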

Additional observations from a re-analysis of the deposited data

How the results depend on the processing

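No result was tested over a list, and counts of calls are given by setting. Calls numbered 13988 as reported and 13577 to 13848 when each replicate was left out in turn (7232 to 7623 higher in cord, 6179 to 6462 in MEF). Calls of 4-fold numbered 3820 and 3795 to 3838 (2467 to 2486 and 1327 to 1360). Paralog pairs called in opposite directions numbered 20 to 21, and genes seen on 1 side alone 352 to 414 in cord and 53 to 62 in MEF. That rise follows from asking for 0, or for at least 1 FPKM, in fewer libraries. With a replicate block, 7553 genes were called higher in cord and 6405 higher in MEF, and 2471 and 1343 by 4-fold. Libraries with the same replicate number did not deviate together (correlations of 0.02, -0.01 and -0.03), so the numbers were not used to pair them.

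A pseudocount of 0.1 gave 4-fold counts of 3183 and 1721, a pseudocount of 1 gave 1920 and 1084, and voom on recovered reads, added after the data were seen, gave 3282 and 1797. With no filter 10872 and 7229 genes were called.

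Some medians turned sign, among them that of BAF subunits, which was 0.58 as reported and -0.0616 after quantile normalization. That normalization also moved the medians of all genes (0.12 to -0.14), pericyte genes (0.26 to -0.36), cartilage (0.02 to -0.33), sphingolipid synthesis (0.16 to -0.19), Polycomb (0.04 to -0.0393), imprinted genes (0.25 to -0.16), neuropathy genes (0.03 to -0.12), tubulins (-0.09 to 0.0548), zinc finger genes (0.31 to -0.15) and kinesins (0.10 to -0.18). Median-ratio scaling gave -0.0286 for cartilage, -0.00959 for Polycomb and -0.0244 for neuropathy genes. In the libraries with the Morc2a change medians were 0.30 for interferon genes (-0.06 as reported), -0.0806 for imprinted genes and -0.0374 for kinesins, and mt-Nd6 had 0.0225. With each library left out in turn, cartilage ran from -0.0720 to 0.104 and kinesins from -0.0045 to 0.126. By span, quantile normalization gave -0.14, -0.22, -0.17, 0.17 and 1.27 from the shortest to the longest bin. Median-ratio scaling gave -0.0667 at 10 to 30 kb, 0.00989 at 30 to 100 kb and 0.37 at 100 to 300 kb, and a filter at 1 FPKM gave -0.0530, 0.0227 and, at 300 kb and over, 1.87. In the 250 bases before the start alone, the CHR was in 9 mitosis promoters and the E2F letters in 4 replication promoters. The causes were not tested. Of 230 genes named, 203 kept their direction and their side of the threshold in all alternatives. Depth limits statements on genes near 0, where 3 reads set the floor of every bound.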

Other observations

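Several gene groups outside the main themes lay at intermediate distances. Of 24 genes of cholesterol synthesis and export, 17 were called higher in MEF and 4 higher in cord. The cholesterol carrier Apoe had means of 696 FPKM in cord and 80.99 in MEF, and Cyp46a1, which clears cholesterol from brain, 11.4 and 0.182. Of 39 growth factor and receptor genes 26 were called higher in MEF, among them Tgfb3 (11.5 and 133), Sfrp2 (1.68 and 74.8) and the chemokine Ccl2 (0.128 and 18.9). Those in cord were led by Fgf1 (67.4 and 0.0921) and Fgf12 (29.8 and 0.2002). Integrins, the receptors for matrix, were called higher in MEF in 17 of 23 cases, and solute carriers higher in cord in 149 of 251. Of 19 tested interferon-stimulated and class I genes 7 were called higher in cord and 8 higher in MEF. By log2 difference, Ifitm3 was the widest of these apart, at 28.4, 24.2 and 26.2 in cord and 279, 274 and 268 in MEF. Heat shock genes divided 9 to 7. The chaperone Cryab, abundant in glia, had means of 211 and 45.9, and the mitochondrial chaperone Hspa9 62.997 and 205.

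Markers of other mesenchymal cells were present in MEF, with few epithelial ones. Col2a1, the collagen of cartilage, stood at 0.352, 0.351 and 0.303 FPKM in cord and 81.1, 80.9 and 83.1 in MEF, and Col10a1, of hypertrophic cartilage, at 10.8, 11.1 and 11.6 in MEF and 0 in cord. Cartilage genes summed to 179 to 188 FPKM in MEF and 33.3 to 36.8 in cord, with 6 of 13 called on each side. The keratins Krt8, Krt18 and Krt19 had MEF means of 2.76, 5.21 and 7.32, while Epcam, a defining epithelial gene, had 0.0645. Of 13 epithelial genes only 5 passed the filter, 4 called higher in MEF and 1 higher in cord. Of the 5, 4 had a cord mean under 0.5 FPKM, and the whole list summed to 17.3 to 17.9 FPKM in MEF. The pericyte list was called 4 to 4, with Rgs5 (27.7 and 1.698) and Vtn (34.4 and 0.0951) higher in cord and Cspg4 (2.02 and 22.1) and Pdgfrb higher in MEF. Of 14 meningeal genes 10 were tested, with 8 called higher in MEF, 2 higher in cord and a median of -3.12. Ptgds, a meningeal and oligodendrocyte enzyme, stood at 329, 305 and 324 in cord and 0.0444, 0 and 0 in MEF, while the meningeal matrix genes Ogn (5.77 and 94.1) and Mgp (16.2 and 270.4) were higher in MEF.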
